A study of Basiliscus vittatus and Chrysopelea ornata and Dasypeltis gansi with 10 samples.

Results

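In the cerebella of 10 squamate species, 6 genes for membrane channels that do not open by voltage were followed out of the 630 one-to-one orthologs of the deposited table. They were taken by protein name and not by level, and all 6 were found. The cation channels are transient receptor potential cation channel subfamily M member 2 (TRPM2), transient receptor potential cation channel subfamily M member 3 (TRPM3) and transient receptor potential cation channel subfamily M member 7 (TRPM7). The anion channels are volume-regulated anion channel subunit LRRC8A, volume-regulated anion channel subunit LRRC8B and volume-regulated anion channel subunit LRRC8D. No other subunit of either family was analysed here, and no sequence is shown because none was at hand.

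TRPM channels are cation channels of the plasma membrane. Those studied here let calcium, sodium and, in some of them, magnesium and zinc into the cell. TRPM2 opens when ADP-ribose binds inside the cell, as happens under oxidative stress. TRPM3 is opened in mammals by heat and by the neurosteroid pregnenolone sulphate, and in rodents it is known from sensory neurons, Purkinje cells and the choroid plexus. TRPM7 joins a magnesium-permeable channel to a protein kinase in the same polypeptide and is present in most cell types. LRRC8 proteins form the anion channel through which swollen cells lose chloride and organic osmolytes. LRRC8A is the subunit that this channel cannot do without, and LRRC8B and LRRC8D are partners of it. In mammalian cells, channels that contain LRRC8D pass larger organic solutes.

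RNA came from adult wild-type cerebellum, and each species gave 1 column of FPKM, a measure of fragments scaled by transcript length and by the mapped fragments of the sample; the column is called its library here. The 6 limbless species were the snakes Pantherophis guttatus, Chrysopelea ornata, Dasypeltis gansi, Python regius and Eryx colubrinus and the limbless lizard Pseudopus apodus. The 4 quadrupedal species were the lizards Pogona vitticeps, Lepidothyris fernandi (labelled Mochlus fernandi), Trioceros jacksonii and Basiliscus vittatus. These species stand for 6 of the locomotor modes that the study defines, and its burrower mode has no library here. P. guttatus, C. ornata and P. apodus use lateral undulation, D. gansi and P. regius other limbless movements, E. colubrinus burrows facultatively, P. vitticeps and L. fernandi are terrestrial, T. jacksonii is arboreal and B. vittatus is facultatively bipedal. P. apodus is the species in which being limbless and being a snake part ways. With 1 library a species, all tests compare species, and a p-value is set against the spread among them, in which ancestry, individual animals and technique are mixed. The tests treat species as independent and take no account of how they are related. Every snake is limbless and every quadrupedal species is a lizard, so ancestry is also part of the difference between groups.

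Summed over the 630 genes, FPKM were lowest in L. fernandi (6289) and highest in E. colubrinus (15880), and reads per library cannot be taken from these sums. On the log2(FPKM + 1) scale the median gene was 0.35 higher in limbless than in quadrupedal species and 0.56 higher in snakes than in lizards, so differences are also given after every library was centred to the same median. No marker of the labelled tissue was at 0, but this says little, because the table holds only orthologs found in every species. Some markers were low. The Purkinje cell marker inositol 1,4,5-trisphosphate receptor type 1 had 1.38 FPKM in P. apodus against 34.9 FPKM or more in the other 9 species. Voltage-dependent T-type calcium channel subunit alpha-1G, another such marker, had 0.5 FPKM in B. vittatus, and the astroglial fibroblast growth factor receptor 3 had 0.51 FPKM in P. apodus. Summed FPKM of 3 Purkinje cell markers lay between 23.7 and 192.6 in limbless and between 51.8 and 105.4 in quadrupedal species, and those of 2 granule cell markers between 34.2 and 341.2 (median 57.2) in limbless and between 78.1 and 191.2 (median 111.5) in quadrupedal species. Of the 3 Purkinje cell markers, 2 had higher mean log2 values in limbless species (median difference 0.81, and 0.47 after centring). The third, inositol 1,4,5-trisphosphate receptor type 1, differed by -0.40. Both granule cell markers had lower mean log2 values in limbless species (median difference -0.83, and -1.17 after centring). No marker of either cell type passed the test across all genes. The part of these marker differences in the channel genes' differences was not tested.

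Among the 6 genes TRPM3 was the most abundant, with a mean of 17.4 FPKM over the 10 species, above the mean of 58.9% of the 630 genes. The other 5 had low means among these 630 orthologs, although TRPM7 in T. jacksonii, at 23.6 FPKM, was above 71.4% of the genes in its library. Means stood at 7.20 FPKM for TRPM7, 6.40 FPKM for TRPM2, 5.16 FPKM for LRRC8D, 4.33 FPKM for LRRC8B and 4.15 FPKM for LRRC8A, and LRRC8A exceeded the mean of only 2.22% of genes. The 3 LRRC8 genes were below the median gene of their library in 10 of 10 species, TRPM2 in 8, TRPM7 in 7 and TRPM3 in 4. LRRC8B and LRRC8D varied least among species. LRRC8B varied 3.95-fold and LRRC8D 4.47-fold between the highest and the lowest species, and only 8.89% and 14.0% of genes varied less. TRPM7 varied 12.8-fold, LRRC8A 10.8-fold, TRPM3 9.26-fold and TRPM2 7.37-fold, against a median of 10.3-fold over all genes. By the SD of log2(FPKM + 1) the order was another one already before centring. That SD was 1.02 for TRPM3, 0.88 for LRRC8A, 0.85 for TRPM2, 0.84 for TRPM7, 0.58 for LRRC8D and 0.57 for LRRC8B. After centring TRPM2 had the largest SD of log2 values, 0.997, above that of 70.2% of genes, with TRPM3 at 0.94 and TRPM7 at 0.94. LRRC8A had 0.63, LRRC8D 0.61 and LRRC8B 0.57, above 25.2%, 23.8% and 16.7% of genes. Each species has a single value, so neighbours in any order of species cannot be separated by a within-species error.

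**Figure D1:**
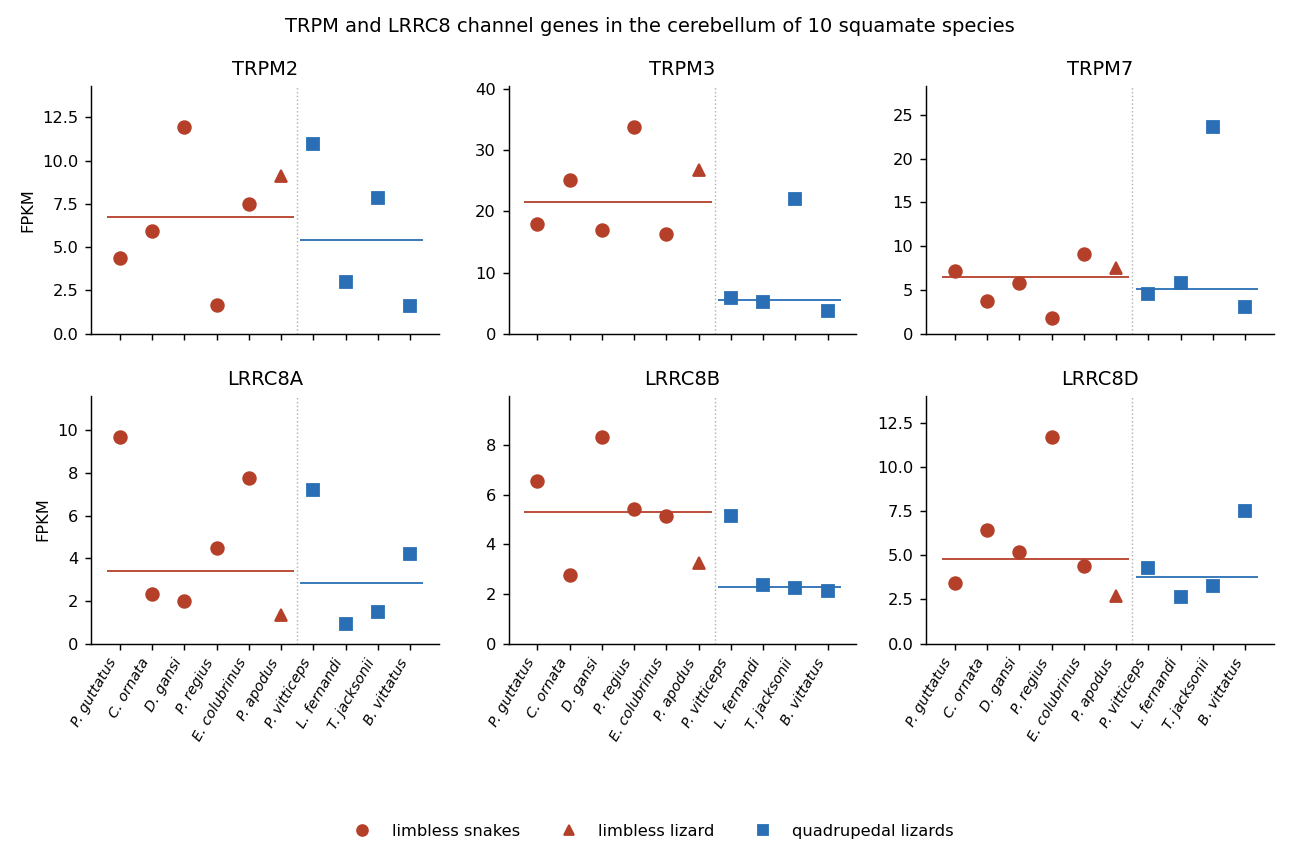
FPKM of the 6 channel genes in each species, with limbless species left and quadrupedal species right of the dotted line and a line at each group's median. TRPM3 was at 16.3 FPKM or above in all 6 limbless species and at 5.80 FPKM or below in 3 of the 4 quadrupedal species. LRRC8B was at 2.78 FPKM or above in all 6 limbless species and at 2.34 FPKM or below in 3 of the 4 quadrupedal species. Relative to each library's median on the log2(FPKM + 1) scale, L. fernandi was above E. colubrinus in both genes.

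TRPM3, the heat- and steroid-gated member, had the clearest difference between limb categories of the 6, although it did not pass the test across all genes. It reached 17.9 FPKM in P. guttatus, 25.1 FPKM in C. ornata, 17.0 FPKM in D. gansi, 33.8 FPKM in P. regius, 16.3 FPKM in E. colubrinus and 26.8 FPKM in P. apodus, all limbless. Quadrupedal species had 5.80 FPKM in P. vitticeps, 5.11 FPKM in L. fernandi, 22.1 FPKM in T. jacksonii and 3.65 FPKM in B. vittatus. In FPKM, the arboreal T. jacksonii was the only quadrupedal species inside the limbless range, and the other 3 lay below every limbless species. Relative to each library's median on the log2(FPKM + 1) scale, L. fernandi (-0.029) was also inside that range, above E. colubrinus (-0.27). Means were 22.8 ± 6.96 FPKM in limbless species and 9.17 ± 8.67 FPKM in quadrupedal species (SD, n = 6 and 4). The difference on the log2(FPKM + 1) scale was 1.49 (SE 0.53, 95% interval 0.37 to 2.61), with an adjusted p of 0.284 in limma and an exact permutation p of 0.019 over the 210 assignments of species, unadjusted and two-sided. It ranked at place 22 of 630 by p. After centring the difference was 1.15 with an adjusted p of 0.440 (limma), and without T. jacksonii it was 1.99 with an adjusted p of 0.0888 (limma).

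By lineage the contrast in TRPM3 was smaller, and the limbless lizard P. apodus had the second-highest level of all species. Snakes averaged 22.0 ± 7.48 FPKM and lizards 12.7 ± 10.9 FPKM (SD, n = 5 each). The log2 difference was 1.09 (SE 0.56), with an adjusted p of 0.379 (limma) and an exact permutation p of 0.127, and it was 0.51 after centring. Within the lizards P. apodus stood at 26.8 FPKM and T. jacksonii at 22.1 FPKM, and the remaining 3 were at 5.80 FPKM or below. The difference between the 2 splits was not tested.

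TRPM7, the channel with its own kinase, lay between 1.84 and 9.12 FPKM in every species but T. jacksonii. Limbless species had 7.11 FPKM in P. guttatus, 3.72 FPKM in C. ornata, 5.74 FPKM in D. gansi, 1.84 FPKM in P. regius, 9.12 FPKM in E. colubrinus and 7.45 FPKM in P. apodus. Quadrupedal species had 4.55 FPKM in P. vitticeps, 5.75 FPKM in L. fernandi, 23.6 FPKM in T. jacksonii and 3.10 FPKM in B. vittatus. T. jacksonii stood apart from the rest, and P. regius was the lowest. Group means were 5.83 ± 2.66 FPKM in limbless and 9.25 ± 9.63 FPKM in quadrupedal species (SD, n = 6 and 4). The log2 difference of -0.32 (SE 0.58, 95% interval -1.53 to 0.90) did not pass (adjusted p = 0.859, limma; exact permutation p = 0.638). It was -0.66 after centring, -0.79 after quantile normalisation of the libraries and 0.23 without T. jacksonii. Snakes and lizards differed by -0.42 (SE 0.55; exact permutation p = 0.508), by -1.001 after centring and by -1.10 after quantile normalisation, with adjusted p between 0.541 and 0.987 over all alternatives (limma).

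TRPM2, the ADP-ribose-gated channel, followed neither split. It had 4.36 FPKM in P. guttatus, 5.96 FPKM in C. ornata, 11.9 FPKM in D. gansi, 1.67 FPKM in P. regius, 7.49 FPKM in E. colubrinus and 9.14 FPKM in P. apodus among limbless species. Among quadrupedal species it had 11.0 FPKM in P. vitticeps, 2.99 FPKM in L. fernandi, 7.85 FPKM in T. jacksonii and 1.62 FPKM in B. vittatus. High and low species were found in both groups. The log2 difference between limbless and quadrupedal species was 0.27 (SE 0.58, adjusted p = 0.870, limma), and it was -0.076 after centring and -0.11 without B. vittatus. For snakes against lizards the difference was -0.0075 (SE 0.56, adjusted p = 0.995, limma), and it was -0.59 after centring (adjusted p = 0.848, limma).

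LRRC8A, the subunit that volume-regulated anion channels require, had 9.69 FPKM in P. guttatus, 2.33 FPKM in C. ornata, 2.01 FPKM in D. gansi, 4.50 FPKM in P. regius, 7.78 FPKM in E. colubrinus and 1.36 FPKM in P. apodus. In quadrupedal species it had 7.22 FPKM in P. vitticeps, 0.90 FPKM in L. fernandi, 1.49 FPKM in T. jacksonii and 4.20 FPKM in B. vittatus. Limbless and quadrupedal species were spread over nearly the same range. The log2 difference was 0.35 (SE 0.59, adjusted p = 0.839, limma), close to the shift of the median gene, and it was 0.0066 after centring. Between snakes and lizards it was 0.69 (SE 0.55, adjusted p = 0.538, limma) and 0.11 after centring.

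LRRC8B had the second-largest difference of the 6 between limb categories before centring, and after centring that of TRPM7 was larger. It had 6.56 FPKM in P. guttatus, 2.78 FPKM in C. ornata, 8.33 FPKM in D. gansi, 5.43 FPKM in P. regius, 5.14 FPKM in E. colubrinus and 3.26 FPKM in P. apodus, against 5.14 FPKM in P. vitticeps, 2.34 FPKM in L. fernandi, 2.22 FPKM in T. jacksonii and 2.11 FPKM in B. vittatus. In FPKM, all limbless species exceeded 3 of the 4 quadrupedal species, and P. vitticeps equalled E. colubrinus. Relative to each library's median on the log2(FPKM + 1) scale, this order did not hold. L. fernandi (-0.90) was then above every limbless species except D. gansi (-0.42), and P. vitticeps (-1.05) was above E. colubrinus (-1.76). Means were 5.25 ± 2.06 FPKM in limbless and 2.95 ± 1.46 FPKM in quadrupedal species (SD, n = 6 and 4). The log2 difference was 0.65 (SE 0.49, 95% interval -0.37 to 1.67; adjusted p = 0.754, limma; exact permutation p = 0.0714) and 0.31 after centring. Snakes averaged 5.65 ± 2.03 FPKM and lizards 3.01 ± 1.27 FPKM (SD, n = 5 each), a log2 difference of 0.72 (SE 0.45; adjusted p = 0.481, limma; exact permutation p = 0.0476), of which 0.14 was left after centring.

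LRRC8D had 3.43 FPKM in P. guttatus, 6.44 FPKM in C. ornata, 5.20 FPKM in D. gansi, 11.7 FPKM in P. regius, 4.41 FPKM in E. colubrinus and 2.69 FPKM in P. apodus. In quadrupedal species it had 4.30 FPKM in P. vitticeps, 2.62 FPKM in L. fernandi, 3.27 FPKM in T. jacksonii and 7.50 FPKM in B. vittatus. The highest species of each group stood above the rest of it, and the remaining values overlapped. The log2 difference was 0.25 between limbless and quadrupedal species (SE 0.51, adjusted p = 0.862, limma) and 0.49 between snakes and lizards (SE 0.47, adjusted p = 0.602, limma). After centring they were -0.092 and -0.090.

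**Figure D2:**
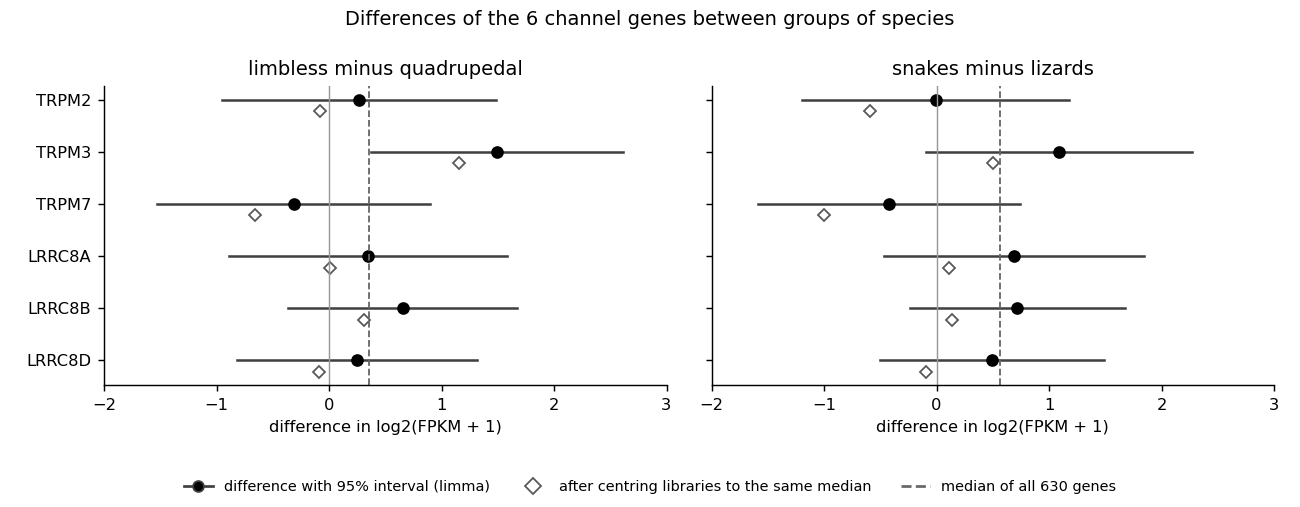
Difference in log2(FPKM + 1) of each gene between limbless and quadrupedal species (left) and between snakes and lizards (right), as points with 95% intervals from limma, with open diamonds after centring and a dashed line at the median of all genes. TRPM3 at 1.49 between limbless and quadrupedal species had the only interval of the 12 that did not include 0.

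None of the 6 genes passed the test between limb categories, and 0 of 630 genes did (0% called, limma, smallest adjusted p = 0.0928). At an unadjusted p under 0.05, limma gave 1 of the 6, TRPM3, against 62 of 630 genes (9.84%), and the exact permutation test gave 55 genes unadjusted and 0 adjusted. Of the 6, 0 had groups that did not overlap in FPKM, against 19 of 630 genes (3.02%). The median difference of the 6 was 0.31, beside 0.35 over all genes. Higher means were found for 5 of the 6 in limbless species, but for 3 after centring.

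Between snakes and lizards the count was also 0 of 6 and 0 of 630 genes (0% called, limma). At an unadjusted p under 0.05, limma gave 0 of the 6 against 85 of 630 genes (13.5%), and the exact permutation test gave 80 genes, LRRC8B among them, with 0 after adjustment. Of the 6, 0 were free of overlap, against 12 of 630 genes (1.9%). The median difference of the 6 was 0.59, beside 0.56 over all genes.

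The locomotor modes with more than 1 limbless species were compared for lateral undulation, with 3 species, and other movements, with 2. Again 0 of 6 and 0 of 630 genes passed (0% called, limma), and at an unadjusted p under 0.05 limma gave 0 of the 6 against 77 of 630 genes (12.2%). With 10 assignments the exact permutation test cannot go below 0.1, so it gave 0 genes under 0.05. LRRC8D averaged 4.19 ± 1.99 FPKM in lateral undulation and 8.46 ± 4.60 FPKM in other movements (SD, n = 3 and 2; log2 difference -0.84, SE 0.71). This was the widest gap among the 6 before centring, and it was -0.49 after centring and -0.32 without P. regius. TRPM7 averaged 6.09 ± 2.06 FPKM in lateral undulation and 3.79 ± 2.76 FPKM in other movements (log2 difference 0.65, SE 0.71), and this difference was 1.01 after centring and 0.026 without P. regius. Over all 6 modes 0 of 630 genes passed the F test (0% called, limma), and 66 of 630 genes (10.5%) were under 0.05 unadjusted, TRPM3 among them (adjusted p = 0.455, limma). TRPM3 averaged 23.3 FPKM in lateral undulation, 25.4 FPKM in other limbless movements and 5.46 FPKM in the terrestrial mode, and the modes with 1 species had 22.1 FPKM (arboreal), 16.3 FPKM (facultative burrower) and 3.65 FPKM (facultative bipedal).

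Levels were next compared within each library, where the scale of the library cancels. TRPM3 was the leading TRPM gene in all 6 limbless species and in 1 of the 4 quadrupedal species, B. vittatus. In P. vitticeps TRPM2 led, and in L. fernandi and T. jacksonii TRPM7 led. TRPM3 held 61.0% of the summed FPKM of the 3 TRPM genes in P. guttatus, 72.2% in C. ornata, 49.0% in D. gansi, 90.6% in P. regius, 49.5% in E. colubrinus and 61.7% in P. apodus, against 27.2% in P. vitticeps, 36.9% in L. fernandi, 41.3% in T. jacksonii and 43.6% in B. vittatus. This share was singled out among the 6 shares of the 2 families after their values were seen, and it rests on the same values as the ratios that follow. How often a share among 3 genes separates the groups was not counted over all genes.

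The same contrast appeared in the ratio of TRPM3 to TRPM7. It was 2.52 in P. guttatus, 6.75 in C. ornata, 2.95 in D. gansi, 18.4 in P. regius, 1.79 in E. colubrinus and 3.59 in P. apodus, against 1.27 in P. vitticeps, 0.889 in L. fernandi, 0.936 in T. jacksonii and 1.18 in B. vittatus. TRPM3 was thus the higher of the 2 in all 6 limbless species, while the 2 genes were nearly level with each other in FPKM in quadrupedal species. The mean log2 ratio was 2.09 in limbless and 0.080 in quadrupedal species, a difference of 2.01, and 1.59 to 2.26 when each species was left out in turn. Of the 15 pairs among the 6 genes this was the only ratio without overlap between limb categories, while 4864 of all 198135 pairs of genes (2.45%) had none. This pair was singled out after its values were seen and has no p. Between snakes and lizards 0 of the 15 ratios were free of overlap, against 1.19% of all pairs.

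**Figure D3:**
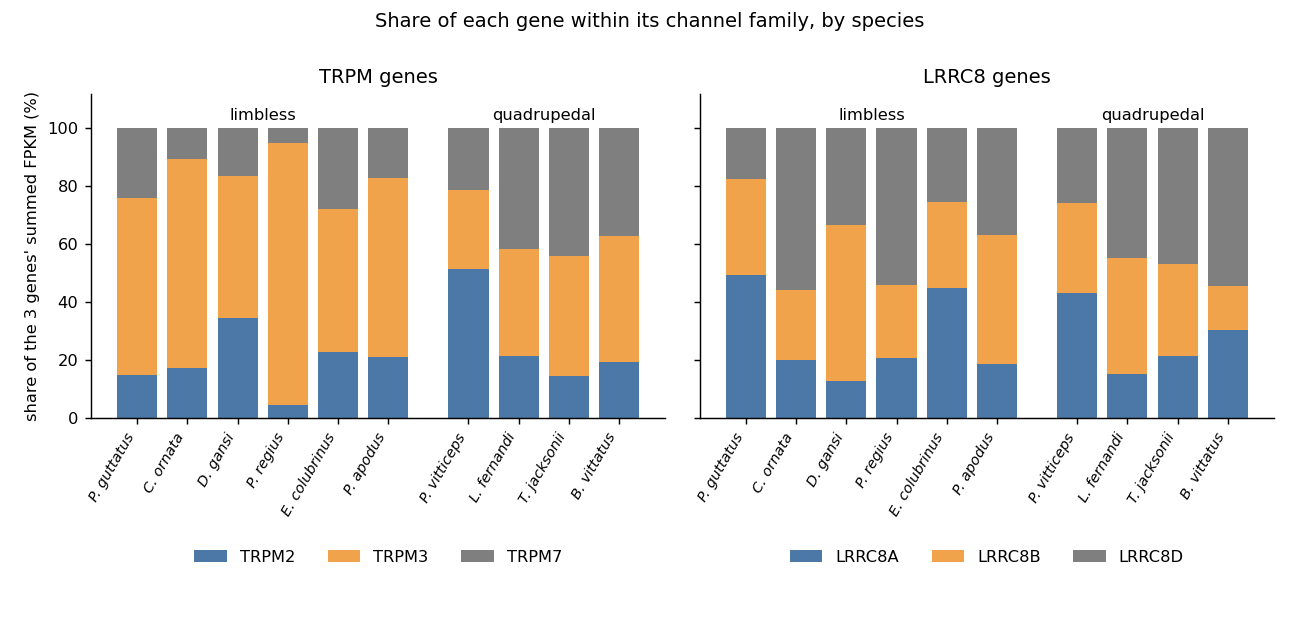
Share of each gene in the summed FPKM of its family's 3 genes, in percent, with limbless species left and quadrupedal species right. TRPM3 took 49.0% to 90.6% of the TRPM sum in limbless species and 27.2% to 43.6% in quadrupedal species. The shares of TRPM2, TRPM7 and the LRRC8 genes overlapped between the groups.

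The LRRC8 genes had no leader shared by a group. LRRC8D was the highest of the 3 in 5 species (C. ornata, P. regius, L. fernandi, T. jacksonii and B. vittatus), LRRC8A in 3 (P. guttatus, E. colubrinus and P. vitticeps) and LRRC8B in 2 (D. gansi and P. apodus). LRRC8A, the required subunit, was the lowest of the 3 in 6 species. Its share of the LRRC8 sum was 12.9% to 49.2% (median 20.5%) in limbless and 15.4% to 43.3% (median 25.9%) in quadrupedal species. The ratio of LRRC8A to LRRC8B ranged from 0.241 in D. gansi to 1.99 in B. vittatus, and the ratio of LRRC8B to LRRC8D from 0.281 in B. vittatus to 1.91 in P. guttatus.

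Between the families, the summed TRPM level exceeded the summed LRRC8 level in 9 of 10 species. The TRPM sum was 29.4 to 43.3 FPKM (median 34.7) in limbless and 8.37 to 53.6 FPKM (median 17.6) in quadrupedal species. The LRRC8 sum was 7.31 to 21.6 FPKM (median 16.4) in limbless and 5.86 to 16.7 FPKM (median 10.4) in quadrupedal species. The ratio of the sums was largest in T. jacksonii, at 7.67, and lowest in B. vittatus, at 0.606. P. apodus, with 5.93, was the limbless species nearest to T. jacksonii.

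Single species stood at the ends of the range in FPKM. P. regius was the highest of the 10 in TRPM3 and LRRC8D and the lowest in TRPM7, and its TRPM3 exceeded its TRPM2 20.2-fold. B. vittatus was the lowest in TRPM2, TRPM3 and LRRC8B. L. fernandi, which also had the smallest library sum, was the lowest in LRRC8A and LRRC8D. T. jacksonii was the highest in TRPM7, and its 3 LRRC8 genes were among its lowest, above 1.90% to 7.14% of the genes in its library. Some of these positions changed relative to each library's median on the log2(FPKM + 1) scale. TRPM3 was then highest in P. apodus (1.75, P. regius 0.93) and LRRC8D in B. vittatus (-0.44, P. regius -0.52). TRPM2 was lowest in P. regius (-2.77), LRRC8A and LRRC8B in T. jacksonii (-2.73 and -2.36) and LRRC8D in P. guttatus (-2.01). For TRPM7 the highest and lowest species stayed the same, and B. vittatus stayed the lowest in TRPM3.

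Across species the 6 genes did not form a common pattern. On median-centred log2(FPKM + 1) over 10 species, Pearson's r was positive in 8 of 15 pairs with a median of 0.058, beside a median of 0.022 and 52.3% positive over all pairs of genes. The points share libraries and ancestry, and r is a description here. TRPM2 and TRPM7 had the highest r, 0.64 (Spearman's rho 0.58), which ranged from 0.39 to 0.75 with each species left out. TRPM2 and LRRC8B followed with 0.53 (rho 0.66). The lowest was that of TRPM3 and LRRC8A at -0.57 (rho -0.71), and it was -0.076 without centring. The LRRC8 genes, whose proteins assemble into 1 channel, had r of 0.20 for LRRC8A and LRRC8B, -0.048 for LRRC8A and LRRC8D and 0.22 for LRRC8B and LRRC8D.

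For each gene the 3 others of most similar pattern were taken from the rest of the table. These trios depend on the libraries and the centring: of the 3 reported for a gene, as few as 0 stayed for LRRC8B and 1 for each of the others in some alternative. TRPM3 was closest to neurofibromin, the Ras GTPase-activating protein, with r = 0.95 (rho 0.93), followed by ubiquitin carboxyl-terminal hydrolase 20, a deubiquitinase, with 0.90 and by the small-RNA processing enzyme endoribonuclease Dicer with 0.90. Neurofibromin had 10.1 FPKM in P. guttatus, 16.4 FPKM in C. ornata, 17.2 FPKM in D. gansi, 29.7 FPKM in P. regius, 12.3 FPKM in E. colubrinus and 18.0 FPKM in P. apodus, against 4.88 FPKM in P. vitticeps, 5.23 FPKM in L. fernandi, 14.4 FPKM in T. jacksonii and 1.57 FPKM in B. vittatus. T. jacksonii was thus within the limbless range in both genes. The r of its closest gene was higher for TRPM3 than for 97.8% of genes, and its median over all genes was 0.86. The least similar to TRPM3 was the histone demethylase lysine-specific demethylase 4A, with r = -0.90, or -0.28 without centring.

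LRRC8A was closest to metabotropic glutamate receptor 7, a presynaptic receptor, with r = 0.96 (rho 0.85) and 0.98 without centring. That receptor had 21.3 FPKM in P. guttatus, 4.57 FPKM in C. ornata, 6.25 FPKM in D. gansi, 9.09 FPKM in P. regius, 17.6 FPKM in E. colubrinus and 2.97 FPKM in P. apodus, against 13.6 FPKM in P. vitticeps, 2.26 FPKM in L. fernandi, 4.26 FPKM in T. jacksonii and 10.5 FPKM in B. vittatus. In FPKM, both genes were highest in P. guttatus and lowest in L. fernandi. Relative to each library's median on the log2(FPKM + 1) scale, LRRC8A was highest in P. vitticeps (-0.63) and lowest in T. jacksonii (-2.73). The r was higher than the highest r of 98.7% of genes. Neurochondrin, a neuronal protein, and ubiquitin carboxyl-terminal hydrolase 10 followed at 0.82 and 0.77. Cullin-5, a ubiquitin ligase scaffold, was the least similar at -0.88, but its r was 0.17 without centring.

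**Figure D4:**
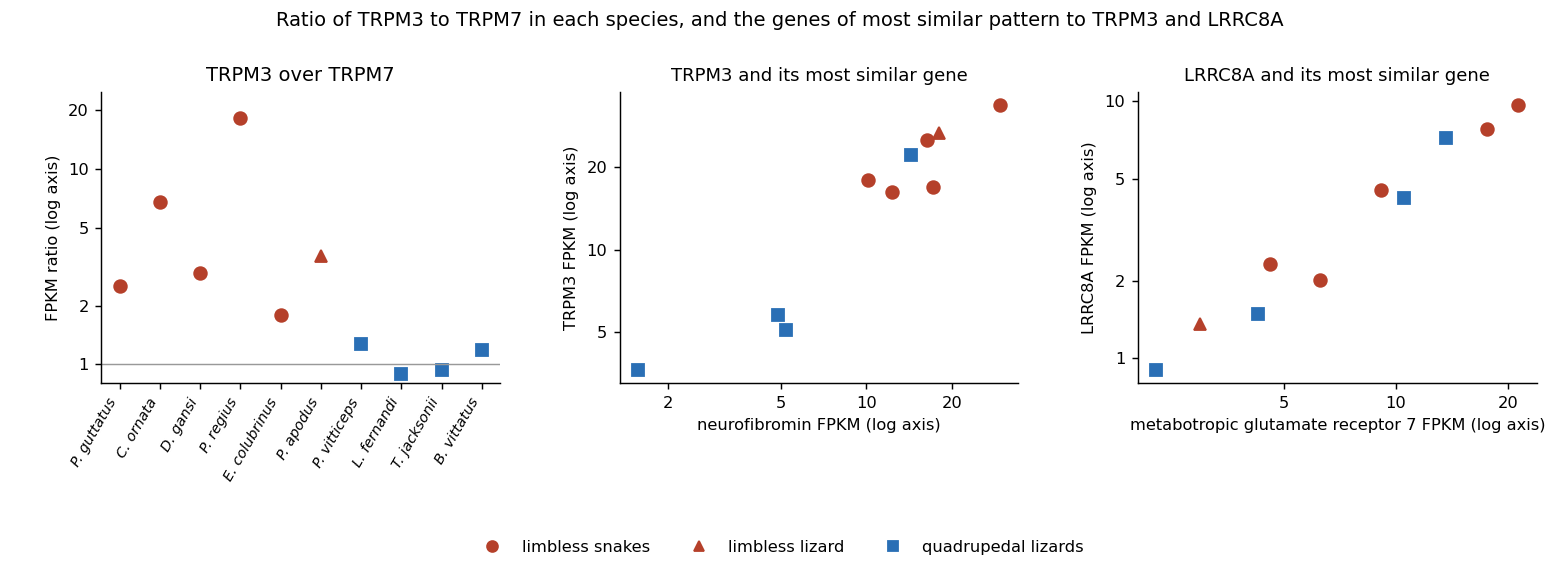
Left, ratio of TRPM3 to TRPM7 FPKM in each species on a log axis; middle and right, TRPM3 against neurofibromin and LRRC8A against metabotropic glutamate receptor 7, FPKM on log axes with 1 point per species. All 6 limbless species had a ratio of 1.79 or above and the 4 quadrupedal species 1.27 or below, and in both scatter plots the species lay along a line (r = 0.95 and 0.96 on the centred log2 scale).

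For the other 4 the r of the closest gene was higher than that of 22.2% to 53.8% of genes. It was 0.83 for TRPM2 (cullin-3, another ubiquitin ligase scaffold), 0.87 for TRPM7 (lysosomal alpha-glucosidase-like), 0.86 for LRRC8B (microtubule-actin cross-linking factor 1-like) and 0.82 for LRRC8D (cTAGE family member 5). The next for TRPM2 were cyclin-T2 (0.80) and cytoplasmic dynein 2 heavy chain 1 (0.79), and for TRPM7 centriolin (0.82) and riboflavin kinase (0.78). For LRRC8B they were neural cell adhesion molecule L1 (0.85) and insulin receptor substrate 1 (0.84), and for LRRC8D insulin-degrading enzyme (0.81) and early endosome antigen 1 (0.81). The least similar were coatomer subunit gamma-1 for TRPM2 (-0.79), cation-independent mannose-6-phosphate receptor for TRPM7 (-0.85), microtubule-associated tumor suppressor candidate 2 for LRRC8B (-0.71) and transcription initiation factor TFIID subunit 1 for LRRC8D (-0.91). Without centring these were -0.36, -0.24, 0.064 and -0.19. Uncentred r also placed cullin-3 at rank 24 for TRPM2, neural cell adhesion molecule L1 at rank 32 for LRRC8B and insulin-degrading enzyme at rank 26 for LRRC8D.

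Genes that act with these channels were counted in the comparison of limbless with quadrupedal species, and 0 of any list passed the test across all genes (limma). Single genes named from the lists here and below were picked by their limma p in this comparison, except phosphodiesterase beta-1 and gamma-1-like. The exact permutation p of the picked genes rests on the same values and is no separate support. Over all genes, 71.0% had higher mean log2 values in limbless species and 51.3% after centring. Of 5 genes of ADP-ribose metabolism, the source of the TRPM2 ligand, 4 had higher mean log2 values in limbless species and 1 after centring. The smallest p among them was that of poly [ADP-ribose] polymerase 3 (log2 difference 0.43, SE 0.65). Of 7 rows of phosphoinositide turnover genes, whose lipids TRPM channels need to stay open, 5 had higher means and 3 after centring. The rows include 1-phosphatidylinositol 4,5-bisphosphate phosphodiesterase beta-1 and a second row of that name, with log2 differences of -0.64 and -0.70. Among these 1-phosphatidylinositol 4,5-bisphosphate phosphodiesterase gamma-1, which cleaves phosphatidylinositol 4,5-bisphosphate, had 5.96 to 19.3 FPKM (median 15.9) in limbless and 1.43 to 11.7 FPKM (median 5.98) in quadrupedal species, a log2 difference of 1.33 (SE 0.56; adjusted p = 0.386, limma; exact permutation p = 0.0333). By lineage it did not overlap, as 1.9% of genes do not. It had 12.7 to 19.3 FPKM in snakes and 1.43 to 11.7 FPKM in lizards (log2 difference 1.505, SE 0.51, adjusted p = 0.257 in limma), P. apodus having 5.96 FPKM. After centring its lineage difference was 0.92 with an adjusted p of 0.603 (limma). The row named gamma-1-like differed by 0.42 between limb categories (SE 0.63), and by 0.083 after centring. All 3 myosin heavy chains of the kind that the TRPM7 kinase phosphorylates had higher means, and myosin-10-like had the smallest p (log2 difference 0.67, SE 0.64).

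Of 6 genes of osmotic and chloride balance, the setting in which LRRC8 channels work, 5 had higher means in limbless species and 4 after centring. Solute carrier family 12 member 5, which carries potassium and chloride out of neurons, had 14.9 to 80.2 FPKM (median 48.3) in limbless and 5.39 to 19.1 FPKM (median 8.18) in quadrupedal species, a log2 difference of 2.05 (SE 0.57; adjusted p = 0.134, limma; exact permutation p = 0.0143). Electrogenic sodium bicarbonate cotransporter 1, an astroglial bicarbonate carrier, had 3.73 to 53.5 FPKM (median 18.3) in limbless and 31.9 to 97.7 FPKM (median 56.4) in quadrupedal species, a log2 difference of -1.57 (SE 0.64; adjusted p = 0.367, limma; exact permutation p = 0.0619). These ranges overlapped in both genes. By lineage, solute carrier family 12 member 5 did not overlap, as 1.9% of genes do not. It had 24.8 to 80.2 FPKM in snakes and 5.39 to 19.1 FPKM in lizards (log2 difference 2.20, SE 0.50, adjusted p = 0.08003 in limma). P. apodus, with 14.9 FPKM, lay among the lizards. After centring the lineage difference of this gene was 1.62 with an adjusted p of 0.520 (limma).

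A list of 15 other ion channels does not hold every one in the table, and it was chosen with earlier results of these data known. Of these 15, 12 had higher means in limbless species and 9 after centring. Their median difference was 0.65, beside 0.35 over all genes. Potassium voltage-gated channel subfamily H member 7 had 6.17 to 38.8 FPKM (median 18.0) in limbless and 1.10 to 16.7 FPKM (median 1.38) in quadrupedal species, a log2 difference of 2.32 (SE 0.65; adjusted p = 0.134, limma; exact permutation p = 0.0143). Ryanodine receptor 1, a calcium release channel, had 2.74 to 30.1 FPKM (median 7.36) in limbless and 1.30 to 2.75 FPKM (median 2.11) in quadrupedal species, a log2 difference of 1.66 (SE 0.61; adjusted p = 0.284, limma; exact permutation p = 0.0381). By lineage ryanodine receptor 1 did not overlap, as 1.9% of genes do not. It had 4.20 to 30.1 FPKM in snakes and 1.30 to 2.75 FPKM in lizards (log2 difference 1.87, SE 0.54, adjusted p = 0.163 in limma), P. apodus having 2.74 FPKM. After centring its lineage difference was 1.29 with an adjusted p of 0.603 (limma). Both genes had larger differences between limb categories than any of the 6 genes described here, TRPM3 included.

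Because TRPM3 is also known from the choroid plexus of rodents, which lies beside the cerebellum, 2 genes active there were set beside it. The summed FPKM of solute carrier family 12 member 2 and the sodium-driven chloride bicarbonate exchanger was 72.5 to 160.6 (median 91.9) in limbless and 60.2 to 80.9 (median 68.6) in quadrupedal species. Both genes had higher means in limbless species, by 0.69 and 0.35 on the log2 scale, and by 0.34 and 0.013 after centring. Between snakes and lizards they differed by 0.47 and 0.46, and by -0.11 and -0.12 after centring. Their r with TRPM3 over 10 species was 0.46 and 0.18, and both also stand in the list of osmotic and chloride balance. Neither is exclusive to that tissue, and its part in the TRPM3 levels was not tested. The exchanger's r with LRRC8B was 0.81, picked as the highest of any marker with any of the 6 genes. That of solute carrier family 12 member 2 with LRRC8B was -0.024. Over all genes, the r of a gene with its closest gene had a median of 0.86. The 3 astroglial markers had r with TRPM3 of -0.56 (fibroblast growth factor receptor 3), 0.13 (glutamate receptor 4) and -0.65 (electrogenic sodium bicarbonate cotransporter 1), and with TRPM2 of -0.70, 0.24 and -0.23 in that order. Their part in the TRPM3 and TRPM2 levels was not tested. With the 6 genes, r ranged from -0.29 to 0.46 for the 3 Purkinje cell markers and from -0.43 to 0.45 for the 2 granule cell markers. It ranged from -0.70 to 0.61 for the 3 astroglial markers. For the oligodendrocyte lineage markers tenascin-R, neurofascin and myelin transcription factor 1 it ranged from -0.39 to 0.56. In a tissue of many cell types, fewer cells of a type and less RNA per cell cannot be told apart.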

How the data were processed

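RNA from adult cerebellum of 10 squamate species was sequenced as stranded total RNA depleted of ribosomal RNA. By the study's methods the authors trimmed reads (Trimmomatic), removed ribosomal sequence (SortMeRNA), assembled each transcriptome de novo (Trinity), predicted proteins (TransDecoder), found one-to-one orthologs (OrthoFinder) and estimated abundance (RSEM), keeping orthologs with over 0.5 FPKM in at least 1 sample. Trimmomatic and RSEM are also named in the submitters' processing notes. The deposited values are FPKM, normalised by the authors for transcript length and mapped reads. Lengths come from each species' own assembly, so an incomplete transcript can alter its FPKM, and this was not tested. The sources used here give neither how sequencing duplicates were combined nor how many animals made up each library. The depth of each single library is not stated in these sources, so no counting interval is given.

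Species were assigned by organism label, and limb category, lineage and locomotor mode from the study's species table. All 630 genes were tested on log2(FPKM + 1) with limma 3.58.1 in R 4.3.3, without a filter and at an adjusted p of 0.05 (Benjamini-Hochberg), and single genes also by exact permutation of species. Changes of genes at low FPKM are understated by this scale. Ratios, shares and correlations are descriptions, made with numpy 2.4.6, scipy 1.17.1 and pandas 2.3.3 under Python 3.11.15. Alternatives were a pseudocount of 0.1, centring, quantile normalisation, a mean of at least 5 FPKM, leaving out 5 rows of doubtful name, and leaving out each species. Only the limma test between limb categories was checked on simulated data. These were independent normal values without shifts between libraries or relatedness of species, so the check does not cover those features or the other tests.

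Genes named are the 6 channel genes, the 3 most and the 1 least similar to each, and in each list those with an unadjusted p under 0.05 and the smallest p. Phosphodiesterase beta-1 and gamma-1-like are named besides, as entries of like name in the phosphoinositide list. The members and the lists were chosen with earlier results of these data known.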

Additional observations from a re-analysis of the deposited data

Results flagged for a closer look

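LRRC8B in P. vitticeps, with 5.14 FPKM, was set apart from the other 3 quadrupedal species, whose highest value was 2.34 FPKM in L. fernandi. On the log2(FPKM + 1) scale the gap made up 0.895 of the group's whole range, above the 95% critical value for 4 samples. Relative to each library's median on that scale, P. vitticeps was no longer the highest of the group. Its value was -1.05, against -0.90 in L. fernandi, -1.89 in B. vittatus and -2.36 in T. jacksonii. In all, 24 groups of values were examined, and chance sets a sample apart in about 1 of 20 groups. Without P. vitticeps the log2 difference between limbless and quadrupedal species was 0.89 in place of 0.65, and it did not pass the test across all genes.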

How the results depend on the processing

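The count of genes passing between limb categories was 0 to 4 with each species left out (4 without D. gansi, 2 without T. jacksonii, 1 without B. vittatus) and that between snakes and lizards 0 to 2 (2 without D. gansi, 1 each without T. jacksonii and B. vittatus). None of the 6 channel genes passed in any alternative run, and adjusted p of TRPM3 between limb categories ranged from 0.0888 to 0.648 (limma). TRPM3, LRRC8A and LRRC8B kept their direction in both of these contrasts under every alternative, except that LRRC8A and LRRC8B, with means under 5 FPKM, had no value under that filter.

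Signs that turned belong to differences that did not pass. For limbless minus quadrupedal species, centring and quantile normalisation gave -0.076 and -0.040 for TRPM2, and -0.092 and -0.13 for LRRC8D. With each species left out, the difference ranged from -0.11 to 0.62 for TRPM2 and from -0.63 to 0.23 for TRPM7. For snakes minus lizards, centring and quantile normalisation gave -0.090 and -0.15 for LRRC8D. TRPM2, at -0.0075, was -0.59 when centred, -0.51 when quantile normalised and 0.00331 with a pseudocount of 0.1, and ranged from -0.33 to 0.31 with each species left out. For lateral undulation minus other movements, TRPM3 was 0.29 when centred and 0.11 when quantile normalised. With each species left out it ranged from -0.54 to 0.41, TRPM2 from -0.84 to 1.44 and LRRC8A from -0.54 to 0.55. The cause was not tested. No paired analysis was possible because each species has 1 library and the labels carry no replicate numbers.

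With 6 and 4 species, the difference in TRPM3 did not pass when adjusted over 630 genes, and the intervals of the other 5 all include 0. Limb category and lineage cannot be told apart except through P. apodus, a single library. Assembly, animals and library scale differ between species, and the reads behind each value are not known here.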
